A study of Mus musculus with 4 samples.

Results

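Open chromatin regions (OCRs) that lay between genes, far from every transcription start site (TSS), and that were called in all 4 ATAC-seq libraries of lymph node (LN) Treg cells are described. In ATAC-seq a transposase cuts accessible DNA, and reads pile up where chromatin is open. The 4 libraries came from Foxp3-RFP+ Treg cells sorted from LNs of female C57BL/6 mice 6 to 8 weeks old, 50000 cells each, with 2 libraries from WT and 2 from Il2ra mut/mut animals. All animals carried the Foxp3-RFP reporter on which the cells were sorted. Il2ra mut/mut mice are homozygous for a point mutation in CD25, the high affinity chain of the IL-2 receptor, which lowers the IL-2 signal that Treg cells receive. The mutation reaches every cell that expresses Il2ra, not Treg cells alone.

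The regions were chosen by peak calls and position. Peaks of the 4 lists that overlapped by at least 1 bp were merged, which gave 269716 autosomal regions, of which 37633 held a peak from every library. After 44 windows of 1 Mb with 300 or more peaks in every list were left out, 32960 regions remained. Of these, 5284 had their midpoint outside every annotated gene and at least 10 kb from every TSS, and the 5231 of them narrower than 2000 bp are the intergenic OCRs. They made up between 3.66% and 4.65% of the peaks of a library. The rule used only the calls and the position, so that being called in every library is no finding. Regions within the same limits in gene bodies (6932, at least 10 kb from every TSS) and at promoters (11117, within 1 kb of a TSS) were taken for comparison.

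Intergenic OCRs of this kind include enhancers, which bind transcription factors and act on promoters at a distance along the chromosome, and insulator sites, where the zinc-finger protein CTCF binds and holds the ends of chromatin loops. In T cells many enhancers bind factors of the ETS and RUNX families, which are present in all T cells, together with factors induced by signals, such as AP-1 after T cell receptor stimulation and STAT5 after IL-2. ATAC-seq shows that DNA is accessible, and does not tell these kinds of element apart.

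Of the 10 T and Treg cell markers examined, Foxp3, Il2ra, Ctla4, Ikzf2 and the CD3 genes among them, all 10 had a promoter peak in all 4 libraries. Of 5 B cell markers 1 (Ebf1) had one, of 5 myeloid markers 0, of 4 CD8 and NK markers 1 (Cd8b1), and of 6 neuron, liver and muscle markers 0. Cd14 had one in 2 libraries and Myod1 in 1.

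The sequences below are shown because the results turn on these OCRs. The first 3 are among the 10 OCRs that ranked highest in every library, the next pair are the strongest beside the genes with the most intergenic OCRs among homing receptors, the OCR near Acvrl1 is the strongest with a CTCF word, the OCR beyond Nrp1 is among the farthest from any TSS, the next stands for OCRs whose summits coincided in all libraries, and the last 3 are among those with the smallest p between genotypes. The OCRs near Cxcr4, S1pr1 and Acvrl1 were chosen after their values were seen. Each is the plus strand of mm10 (GRCm38) over the 200 bp around the median summit, with capitals for the motif words searched, and all of them lie outside annotated genes.
OCR near Wnt7b (chr15:85634569-85634768): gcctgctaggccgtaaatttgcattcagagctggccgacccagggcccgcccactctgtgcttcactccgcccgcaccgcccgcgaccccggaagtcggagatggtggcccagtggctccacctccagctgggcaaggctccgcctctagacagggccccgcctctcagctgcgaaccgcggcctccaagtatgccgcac
OCR near Fos (chr12:85455303-85455502): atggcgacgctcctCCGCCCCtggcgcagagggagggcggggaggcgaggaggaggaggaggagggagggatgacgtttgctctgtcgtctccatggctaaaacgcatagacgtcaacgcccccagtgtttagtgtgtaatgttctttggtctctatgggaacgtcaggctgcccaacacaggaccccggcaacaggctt
OCR near Tmem26 (chr10:68673615-68673814): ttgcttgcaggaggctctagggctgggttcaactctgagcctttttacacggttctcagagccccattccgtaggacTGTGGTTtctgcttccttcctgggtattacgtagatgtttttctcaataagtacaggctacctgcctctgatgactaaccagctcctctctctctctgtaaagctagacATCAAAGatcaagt
OCR near Cxcr4 (chr1:128614912-128615111): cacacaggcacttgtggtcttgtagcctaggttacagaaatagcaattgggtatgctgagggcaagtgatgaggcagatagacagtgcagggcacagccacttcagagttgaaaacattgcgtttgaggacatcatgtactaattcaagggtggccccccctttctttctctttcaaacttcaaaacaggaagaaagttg
OCR near S1pr1 (chr3:115682757-115682956): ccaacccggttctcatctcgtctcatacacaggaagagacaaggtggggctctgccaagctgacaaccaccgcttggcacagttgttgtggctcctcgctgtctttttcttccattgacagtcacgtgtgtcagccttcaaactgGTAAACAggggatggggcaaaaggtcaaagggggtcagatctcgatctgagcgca
OCR near Acvrl1 (chr15:101145545-101145744): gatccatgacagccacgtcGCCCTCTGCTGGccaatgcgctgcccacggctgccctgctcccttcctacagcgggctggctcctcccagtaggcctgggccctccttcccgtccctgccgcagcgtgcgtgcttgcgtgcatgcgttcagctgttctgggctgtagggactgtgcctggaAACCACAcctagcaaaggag
OCR beyond Nrp1 (chr8:127962954-127963153): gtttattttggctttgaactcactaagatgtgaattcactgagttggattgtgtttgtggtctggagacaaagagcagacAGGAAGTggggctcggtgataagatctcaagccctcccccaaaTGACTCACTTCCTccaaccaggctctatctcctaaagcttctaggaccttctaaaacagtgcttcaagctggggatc
coincident-summit OCR, the farthest (chr4:50822632-50822831): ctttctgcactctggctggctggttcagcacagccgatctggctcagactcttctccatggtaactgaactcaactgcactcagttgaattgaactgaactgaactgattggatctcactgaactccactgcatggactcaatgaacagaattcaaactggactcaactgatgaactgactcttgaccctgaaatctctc
OCR near Egr2 (chr10:67458883-67459082): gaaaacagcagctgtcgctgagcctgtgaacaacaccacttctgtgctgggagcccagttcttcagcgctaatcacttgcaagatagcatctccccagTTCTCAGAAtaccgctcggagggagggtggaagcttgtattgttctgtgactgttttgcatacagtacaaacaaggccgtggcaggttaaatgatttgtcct
OCR near Csf1 (chr3:107796674-107796873): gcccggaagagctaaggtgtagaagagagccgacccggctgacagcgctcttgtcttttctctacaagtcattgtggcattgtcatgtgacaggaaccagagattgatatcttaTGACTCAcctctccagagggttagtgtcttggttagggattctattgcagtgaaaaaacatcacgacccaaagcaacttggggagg
OCR near Lcn4 (chr2:26753485-26753684): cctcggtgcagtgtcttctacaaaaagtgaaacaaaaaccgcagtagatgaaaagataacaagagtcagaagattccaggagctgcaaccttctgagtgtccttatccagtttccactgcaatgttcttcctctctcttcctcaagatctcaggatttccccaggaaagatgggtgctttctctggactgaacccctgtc

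These sequences differed in what they held. The OCR near Wnt7b, the strongest of those neither repeated nor crowded, and the OCR near Cxcr4 held none of the 13 words in the spellings searched. Sites of the same families in other spellings were not looked for. The OCR beyond Nrp1 held the ETS word on both strands, the second copy sharing 1 base with an AP-1 word.

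The 5231 intergenic OCRs fell into 3 kinds that could be told apart without using genotype. There were 948 OCRs (18.1%) in crowded surroundings, with at least 20 peaks within 50 kb to each side in every library. A further 444 (8.49%) were not crowded but had their 4 summits within 10 bp of each other, and are called coincident. The remaining 3839 (73.4%) are described most closely here. Both limits were set after the data were seen, so that the differences in crowding and in summit position between the kinds are given as a description.

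Crowded OCRs ranked low and had scattered summits. Their median percentile rank by fold enrichment among all peaks of a library was 47.8, 43.8, 55.5 and 62.3 in WT 1, WT 2, Il2ra mut/mut 1 and Il2ra mut/mut 2, and 811 of the 948 (85.5%) were below the 50th percentile in at least 1 library. Their 4 summits spread over a median of 428.5 bp, and their median width was 887.5 bp. They lay in 138 of the 1466 windows of 1 Mb that held an intergenic OCR. The protein-coding genes nearest to the most intergenic OCRs were beside them. Gm4791 on chromosome 9 was nearest to 41 OCRs, all 41 crowded, Adgrb1 to 35 (34 crowded), Arpp21 to 32 (31 crowded) and A230072I06Rik to 27 (all 27 crowded). Tshz3 (26, 23 crowded), Irx3 (24, all crowded), Gfra2 (22, 20 crowded), Klf4 (22, 20 crowded), Fam19a5 (21, all crowded) and Rnd3 (20, all crowded) completed the first 10. The best OCR beside Gm4791 had summit reads of 9, 10, 17 and 16 in this order of libraries. The WT libraries were the low ones at that OCR and the genotypes did not overlap there, with an unadjusted p of 0.0209 and an adjusted p of 0.520 (limma).

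Coincident OCRs stood at ordinary ranks, with medians of 81.9, 76.7, 83.0 and 85.4 in the same order of libraries, but were uniform in size. Their median merged width was 389 bp, with quartiles of 386 and 393 bp, and 306 of the 444 (68.9%) were at least 380 and under 400 bp wide, against 168 of the 3839 remaining OCRs (4.38%). The quartiles of the remaining OCRs were 466 and 798 bp. The spread of summits of all non-crowded intergenic OCRs had 2 modes, with 376 at 5 bp or less, 85 from 11 to 20 bp and 265 from 51 to 60 bp. The same kind was present in gene bodies, where 364 of 6067 non-crowded OCRs had coincident summits and the same median width of 389 bp, and was a smaller share of them (6.00%, 95% Wilson interval 5.43 to 6.63) than of intergenic OCRs (10.4%, 9.49 to 11.3). At promoters it was 1.79% (1.56 to 2.05), with a median width of 1000 bp. Base composition set them apart as well. The median GC content at the summit was 41% in coincident and 49.5% in remaining OCRs, and the median repeat-masked share was 26% and 9.5%. The 31 bases at their centre were repeated elsewhere in the genome in 6 of the 444 coincident OCRs (1.35%) and in 104 of the 3839 remaining ones (2.71%).

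The density of intergenic OCRs fell with distance from the nearest TSS. Between 10 and 20 kb from a TSS there were 1854 OCRs (35.4% of all) in 205 Mb of eligible sequence, 9.03 per Mb. Between 20 and 50 kb there were 2051 in 308 Mb (6.66 per Mb), between 50 and 100 kb 826 in 204 Mb (4.05 per Mb), and beyond 100 kb 500 in 168 Mb (2.98 per Mb). The classes rest on the annotation, since with protein-coding genes only 34.1% of OCRs lay beyond 100 kb in place of 9.56%. The median distance was 26753 bp, with quartiles of 16139 and 50705 bp. Among the remaining OCRs the fall was steeper, from 7.39 to 5.13, 2.70 and 1.14 per Mb, since 234 of the 500 OCRs beyond 100 kb were crowded and 75 were coincident. The share of coincident OCRs among non-crowded ones rose over the same classes, from 7.11% (5.96 to 8.46) to 9.04% (7.78 to 10.5), 14.8% (12.3 to 17.8) and 28.2% (23.1 to 33.9).

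**Figure D1:**
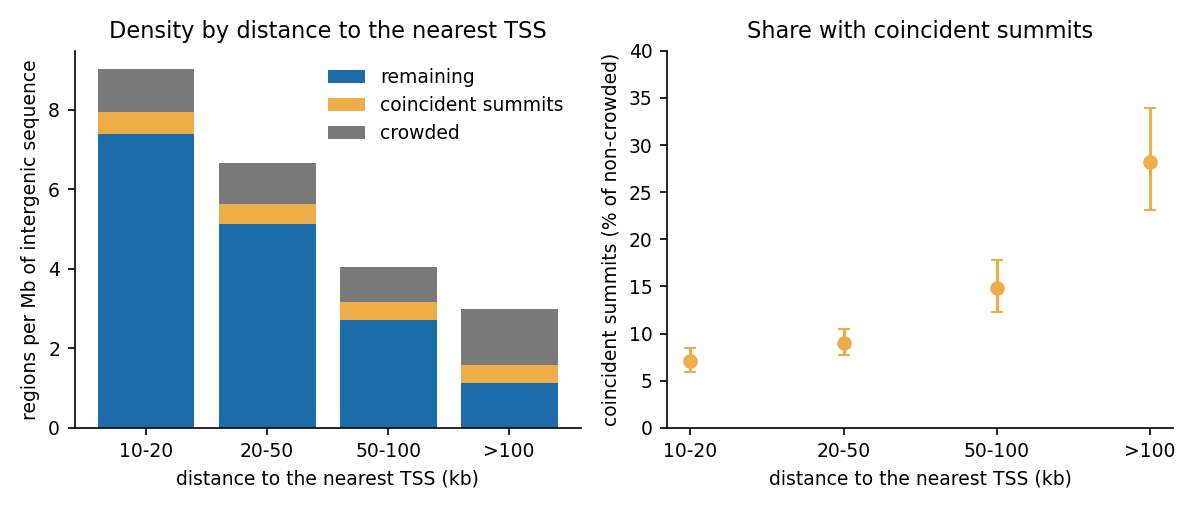
Left, intergenic OCRs per Mb of sequence that met the position rule, by distance to the nearest TSS, stacked by kind (remaining, coincident summits, crowded). Right, share of non-crowded OCRs with coincident summits, with 95% Wilson intervals. The density falls from 9.03 to 2.98 per Mb while the coincident share rises from 7.11% to 28.2%.

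Members just inside the distance limit ranked slightly below regions just outside it in all 4 libraries. At the width limit the median ranks differed only in Il2ra mut/mut 1. The 243 OCRs 10 to 11 kb from a TSS had median ranks of 78.2, 81.0, 80.6 and 83.3, and 252 regions 9 to 10 kb from a TSS had 80.3, 83.4, 83.0 and 85.4. The 53 intergenic regions of 2000 bp or more had 78.2, 71.3, 72.6 and 81.8, and the 171 OCRs of 1500 bp or more had 78.2, 71.3, 78.9 and 81.8. The 4904 intergenic regions called in 3 libraries were lower, at 47.8, 43.8, 55.5 and 46.7 in the libraries that called them. Of intergenic regions called at least once, 6.86% (6.68 to 7.04) were called in all 4 libraries, against 9.07% (8.86 to 9.27) in gene bodies and 51.9% (51.2 to 52.5) at promoters.

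The OCRs between genes ranked below promoters and close to those in gene bodies. The median rank of all intergenic OCRs was 78.2, 79.9, 78.9 and 81.8 in WT 1, WT 2, Il2ra mut/mut 1 and Il2ra mut/mut 2, that of gene body OCRs 80.3, 83.0, 81.9 and 84.5, and that of promoters 92.2, 92.8, 92.7 and 93.7. The mean difference of intergenic OCRs from promoters was -13.2 percentile points ± 0.962 (SD, n = 4 libraries), and from gene body OCRs -2.73 ± 0.473, with the same sign in 4 of 4 libraries. With crowded and coincident OCRs left out of each class, these differences were -10.3 ± 1.35 and -1.10 ± 0.362. The fold enrichment had chosen which peaks were called, so no test is given. The median intergenic OCR held 12, 15, 14 and 13 reads at its summit, over a background of 0.974, 0.979, 1.23 and 1.06 reads, and the lowest held 5 or 6. Reads are not corrected for depth, so libraries are compared by percentile rank or normalised value. Percentile ranks are in turn not corrected for the length of a list, from 112569 peaks in WT 1 to 142732 in Il2ra mut/mut 2. In each class WT 1 had the lowest and Il2ra mut/mut 2 the highest median rank. Separations of genotypes by percentile can carry such an offset and are a description. Of the remaining OCRs, 552 (14.4%) were in the top 10% of the peaks of every library, against 14 of the 948 crowded ones (1.48%) and 31 of the 444 coincident ones (6.98%).

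**Figure D2:**
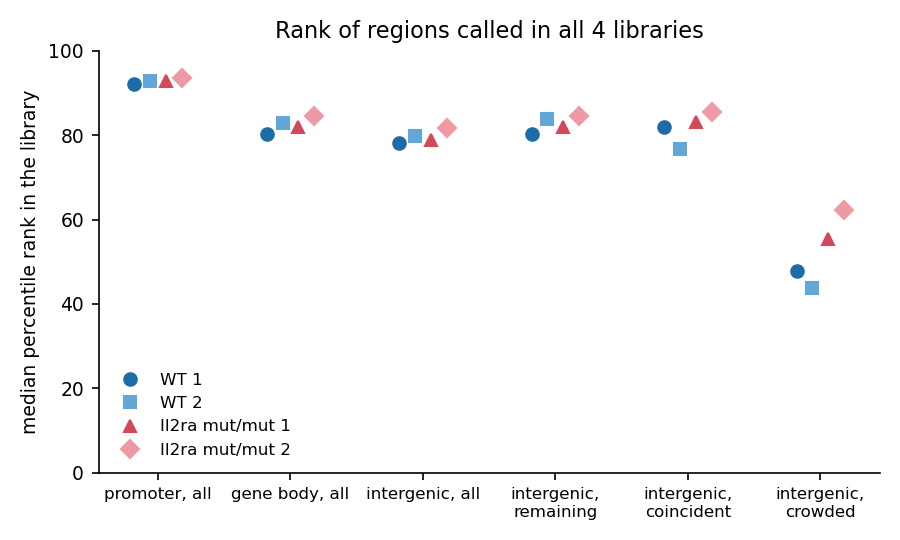
Median percentile rank by fold enrichment among all peaks of each library (vertical axis, 0 to 100), for promoter, gene body and intergenic OCRs called in all 4 libraries and for the 3 kinds of intergenic OCR. Each point is 1 library. Promoters lie above 92 in every library, the remaining intergenic OCRs between 80.3 and 84.5, and the crowded ones between 43.8 and 62.3.

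The 2 highest ranked OCRs lay in repeated sequence. One on chromosome 12 (chr12:3109761-3110252), 27.3 kb from the pseudogene Gm9075, held 521, 465, 503 and 342 reads at its summit, was wholly repeat-masked, and had its central 31 bases at 51 places in the genome. The other on chromosome 17 (chr17:13305799-13306668) held 363, 386, 488 and 534 reads, was wholly repeat-masked and had 34 copies. Reads at such copies cannot be assigned to one place with confidence, and both values are given as uncertain.

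The next 8 of the 10 highest ranked OCRs were unique in this sense. The OCR near Wnt7b (chr15:85634200-85635389), a Wnt ligand gene 52.3 kb away, lay 11.3 kb from the lincRNA Gm49539 and held 217, 271, 273 and 258 reads. It stood at or above the 99.9th percentile of every list, with its 4 summits within 41 bp. The OCR near Fos (chr12:85454910-85456115), 18.4 kb from the TSS of this AP-1 subunit gene, held 130, 210, 185 and 167 reads. An OCR 49.99 kb from Tmem26 (chr10:68673360-68674161) held 116, 181, 161 and 155 reads. By percentile rank WT 1 was the lowest library at the last 2 of these and WT 2 at the OCR near Wnt7b. Those nearest to Zfp831, Zfp395, Ccne1 and Gm5426 had between 109 and 171 reads in any library. None of the 10 differed between genotypes at an adjusted p of 0.05, and those 8 had log2 differences (Il2ra mut/mut minus WT) between -0.18 and 0.09.

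The farthest OCRs were weaker. The OCR farthest from any TSS lay on chromosome 4 (chr4:50822538-50822926), 367 kb from the pseudogene Gm12460, with 17, 16, 22 and 19 reads. It was 389 bp wide with its summits within 1 bp, and was therefore coincident. Of the next 4, one near Gm11925 (339 kb) was coincident, one near Tox3 (331 kb) was crowded, and a pair beside Gm37604 at 352 and 338 kb were of the remaining kind, with 8 to 19 reads. Among the remaining OCRs the next 3 were all closest to Nrp1, which encodes the surface protein neuropilin-1 found on thymus-derived Treg cells. They lay 449, 396 and 392 kb from its TSS, and more than 311 kb from any TSS. The one at 449 kb (chr8:127909478-127910288) held 20, 24, 25 and 26 reads, the one printed above 10, 23, 14 and 21, and the third 14, 17, 16 and 17. On the normalised values the genotypes overlapped at all 3 of these. By percentile they overlapped at the last 2, and at the first both Il2ra mut/mut libraries were above both WT libraries. The log2 difference at the first was 0.18 ± 0.23 (SE), adjusted p = 0.811 (limma).

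The remaining OCRs were unevenly shared among genes. Protein-coding genes nearest to at least 1 intergenic OCR numbered 2451 of 20807 (11.8%), and 2072 (9.96%) with the remaining OCRs alone, while 11530 genes had any sequence that met the position rule. Nearness was taken to the closest protein-coding TSS and does not show which gene an element acts on. With the remaining OCRs, the genes with most were Cog6 (15), S1pr1 (15), Cxcr4 (14), Rplp1 (13), Zfp217 (13), 3110018I06Rik (12), Btg1 (12), Ifng (12), Ubl3 (12) and Cwc27 (11). S1pr1 encodes the receptor for the lipid that draws T cells out of LNs, Cxcr4 a chemokine receptor, Ifng the cytokine interferon-gamma, and Btg1 an inhibitor of cell growth.

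The 15 OCRs of S1pr1 lay 14.4 to 118 kb from its TSS, in 340 kb of intergenic sequence (44.1 per Mb, against 4.34 per Mb for all protein-coding genes). The strongest (chr3:115682341-115683395) held 56, 105, 63 and 70 reads, at percentiles of 96.7, 98.3, 96.1 and 97.4. The 14 of Cxcr4 lay 13.8 to 240 kb away, and the strongest (chr1:128614281-128615882) held 100, 166, 120 and 116 reads, at percentiles of 99.1, 99.5, 98.96 and 99.1. By percentile the genotypes overlapped at the S1pr1 OCR, and at the Cxcr4 OCR both WT libraries were above both Il2ra mut/mut libraries, with an adjusted p of 0.569 (limma). The 12 of Ifng were all above the 70th percentile in every library, 17.9 to 193 kb from its TSS, and the strongest (chr10:118418706-118419660) held 54, 77, 70 and 63 reads. The 12 of Btg1 had a median lowest rank of 88.6.

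Many stood in groups. Joined over gaps of up to 20 kb, 597 of the 3839 remaining OCRs formed 123 groups of 4 or more, although the median gap between neighbours was 110 kb. The largest held 11 OCRs in 44.5 kb, all 11 nearest to Rplp1. One of 9 in 71.4 kb, of which 5 were nearest to Pdhx, held the strongest Cd44 OCR, and one of 8 in 52.0 kb belonged to S1pr1. A group of 7 in 28.5 kb belonged to Ifng, and one of 6 in 14.4 kb, with a median lowest rank of 90.2, lay by the growth inhibitor Btg2.

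Gene lists were compared by the number of remaining OCRs per Mb of their intergenic sequence, and genes are counted among those with any sequence that met the position rule. Genes for Treg cell proteins had 41 OCRs at 12 of 15 genes (25.7 per Mb), T cell transcription factors 125 at 36 of 42 (16.8 per Mb), cytokine receptors 20 at 9 of 21 (24.4 per Mb), homing and adhesion 54 at 9 of 13 (46.4 per Mb), and T cell receptor signalling and survival 49 at 18 of 31 (14.8 per Mb). All protein-coding genes together had 3839 at 2072 of 11530 (4.34 per Mb). When the nearest TSS of any gene was used in place of the nearest protein-coding one, the transcription factor genes with an OCR numbered 14 in place of 36. B cell genes had 1 OCR at 1 of 7 (2.21 per Mb in only 0.453 Mb), neuronal genes 8 at 4 of 17 (4.15 per Mb), and liver and muscle genes 1 at 1 of 15 (0.495 per Mb). Myeloid genes had 8 at 4 of 12, which was 28.6 per Mb in only 0.279 Mb of sequence. Cebpb, a transcription factor gene, was among them with 4 OCRs, while the 5 myeloid markers had no promoter peak in all libraries.

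Treg genes differed among themselves. Nrp1 had 10 remaining OCRs, Icos, a costimulatory receptor, 9, Cd83 7 and Gzmb, a cytotoxic protease, 3. The strongest of Icos (chr1:61135360-61136596) held 38, 63, 58 and 45 reads, and that of Gzmb (chr14:56296540-56297474) 48, 59, 56 and 62. Ctla4 had 2 remaining and 3 crowded OCRs, and Il2ra could have none, since no sequence nearest to it met the position rule. Ikzf2, which encodes the transcription factor Helios, had 1, with 15, 25, 22 and 16 reads 65.7 kb away.

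Transcription factor genes had the most in number. Maf had 11, Gata3 10, Foxo1 9 and Lef1, a factor of naive and resting T cells, 7. The strongest Maf OCR (chr8:115397644-115398750) lay 309 kb from its TSS with 67, 101, 101 and 104 reads, at percentiles of 97.7, 98.2, 98.4 and 98.8, so that both WT libraries ranked lower (adjusted p = 0.599, limma). The 10 of Gata3 lay 128 to 913 kb away in 968 kb of sequence, only 10.3 per Mb. The strongest Foxo1 OCR (chr3:52457951-52459165) held 71, 98, 82 and 61 reads, and that of Lef1 (chr3:130947025-130947807) 94, 126, 92 and 103. By percentile both WT libraries were above both Il2ra mut/mut libraries at each, with adjusted p of 0.557 and 0.558 (limma). Bach2 had 3 and Satb1 1, which held 15, 19, 18 and 15 reads.

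Among receptors, Tgfbr2 for TGF-beta had 6 and Il6st, Il1rl1 and Il7r had 3, 3 and 2. Il2rb, the IL-2 receptor beta chain, had 1 weak OCR with 9, 12, 13 and 8 reads. Among signalling genes Rasgrp1 had 8, Cblb, a ubiquitin ligase that restrains T cell activation, 6 and Pik3r1 5. The strongest Cblb OCR (chr16:51690564-51691428) held 52, 115, 107 and 81 reads, with WT 1 the lowest by reads and by percentile.

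Genes known as targets of IL-2 and STAT5 were looked at outside the rule for named genes. Socs1, a feedback inhibitor of cytokine signals, had 3, the strongest 13.2 kb away (chr16:10771845-10772770) with 82, 122, 103 and 105 reads and a STAT word in its window. Cish, of the same family, had 1 (chr9:107312661-107313689), with 52, 93, 85 and 69 reads and also a STAT word. Bcl2 had 2, the stronger with 30, 38, 26 and 34 reads. The genotypes overlapped at the first 2 of these OCRs, and their log2 differences were -0.05 ± 0.11 and 0.04 ± 0.16 (SE), with adjusted p of 0.892 and 0.949 (limma). The Bcl2 OCR had -0.23 ± 0.23 (SE). Other genes were looked at in the same way. The strongest OCRs of Ctla4, Ikzf2, Il2rb, Bach2, Satb1 and Ccr7 had differences from -0.24 (Bach2) to -0.05 (Ikzf2). That of Il10 had 0.66 ± 0.16 (SE), with an adjusted p of 0.520 (limma), and is described under the other observations.

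Sequence at the summit was not used by the rule. Words were searched on both strands of the 200 bp around the median summit. For the ETS family, which includes ETS1 and is present in all T cells, the word was AGGAAGT. For RUNX proteins, which act throughout T cell development, it was TGTGGTT. For AP-1, the dimers of Fos and Jun proteins that follow stimulation of the T cell receptor, it was TGANTCA. For STAT proteins, which carry the signals of cytokine receptors to DNA, it was TTCNNNGAA. For forkhead proteins, the family of Foxp3 and Foxo1, it was TGTTTAC. For the TCF and LEF proteins of naive T cells, which also respond to Wnt signals, it was CTTTGAT. For KLF proteins, among them a factor that keeps T cells quiescent, it was GGGTGTG. For GATA proteins, of which Gata3 is the one in T cells, it was AGATAAG. For the E-box, the site of helix-loop-helix proteins, it was CACCTG. For NF-kappaB, which follows antigen and costimulatory receptors, it was GGANTTTCC. For NRF1, a factor found mostly at promoters of housekeeping genes, it was GCGCATG. For SP1, a zinc-finger protein of GC-rich promoters, it was GGGGCGG. The CTCF core is given by its name. A word is a match of letters and not a bound site, and sites of a family that are spelled otherwise are missed. Windows 2 kb to each side of the OCRs served as background, and all ranges are 95% Wilson intervals.

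The ETS word was in 769 of the 3839 remaining OCRs, 20.03% (18.8 to 21.3), against 5.85% (5.34 to 6.40) of the windows beside them. RUNX was in 12.5% (11.5 to 13.6) against 4.66% (4.21 to 5.16), AP-1 in 12.2% (11.2 to 13.3) against 6.43% (5.91 to 7.005), and the CTCF core in 7.22% (6.44 to 8.08) against 0.247% (0.158 to 0.386). STAT was in 7.66% (6.86 to 8.54) against 5.95% (5.44 to 6.50). SP1 was in 4.30% (3.70 to 4.99) against 1.05% (0.850 to 1.31). KLF, E-box, NF-kappaB and NRF1 words were also above the windows beside, with intervals that did not overlap. Forkhead, TCF/LEF and GATA words had intervals that overlapped those of the windows beside the OCRs. Of the remaining OCRs 1741 (45.4%) held at least 1 of the ETS, RUNX, AP-1 and CTCF words. The median GC content was 49.5% at the summit and 45% in the windows beside, and its part in these shares was not tested.

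OCRs in gene bodies were close in most words. ETS was higher there, at 23.1% (22.0 to 24.2), and the CTCF core lower, at 5.61% (5.04 to 6.24), and these intervals did not overlap those of the intergenic OCRs. The intervals of RUNX, AP-1 and STAT overlapped. Promoters differed more, with SP1 in 34.9% (34.0 to 35.8) against 4.30% (3.70 to 4.99) of intergenic OCRs, ETS in 8.62% (8.10 to 9.16) and the CTCF core in 2.63% (2.35 to 2.95). The median GC content of promoters was 64%. The ETS shares count only the spelling AGGAAGT, so they do not show how common ETS sites of other spelling were in each class.

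**Figure D3:**
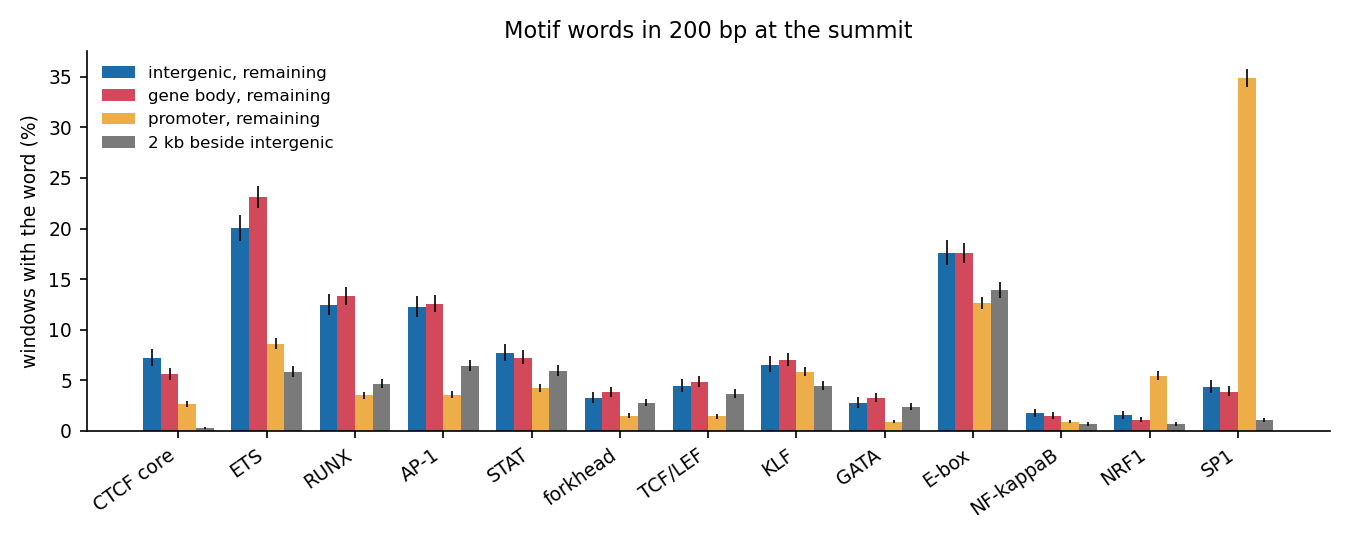
Share of 200 bp windows with each motif word (vertical axis, %), with 95% Wilson intervals, in intergenic, gene body and promoter OCRs of the remaining kind and in windows 2 kb to each side of the intergenic ones. ETS stands at 20.03% of intergenic OCRs against 5.85% beside them, and SP1 at 34.9% of promoters against 4.30% of intergenic OCRs.

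Crowded and coincident OCRs held the ETS, RUNX and AP-1 words at about the level of the windows beside the remaining OCRs. ETS was in 6.65% (5.23 to 8.41) of crowded and 5.18% (3.48 to 7.65) of coincident OCRs, RUNX in 5.49% (4.21 to 7.12) and 5.86% (4.03 to 8.44), and AP-1 in 6.33% (4.95 to 8.06) and 6.98% (4.96 to 9.74). The CTCF core was in 6 of 948 crowded and 2 of 444 coincident OCRs, 0.633% and 0.450%. The intervals of these 4 words lay below those of the remaining OCRs. The E-box went otherwise, at 18.04% (15.7 to 20.6) of crowded and 12.6% (9.84 to 16.02) of coincident OCRs. It was in 17.6% (16.4 to 18.8) of remaining OCRs and 13.9% (13.2 to 14.7) of the windows beside the remaining OCRs.

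The words changed with the strength of the OCR. Remaining OCRs were split by the lowest of their 4 percentile ranks. The ETS word was in 13.01% (10.3 to 16.4) of those under the 25th percentile, then in 15.1%, 19.2% and 22.8%, and in 26.8% (23.3 to 30.7) of those at or above the 90th. RUNX was in 6.40% (4.52 to 8.98) of the lowest and 20.7% (17.5 to 24.2) of the highest. The CTCF core went the other way, from 8.96% (6.69 to 11.9), 10.5% and 10.4% to 5.29%, and to 1.81% (0.987 to 3.30) of the highest. AP-1 was in 7.68% (5.60 to 10.4) of the lowest and 13.6% (10.98 to 16.7) of the highest, and the intermediate groups were at 11.1%, 13.99% and 12.9%. The spread of summits fell from a median of 186 to 62.5 bp and the width rose from 510 to 878 bp over the same groups.

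**Figure D4:**
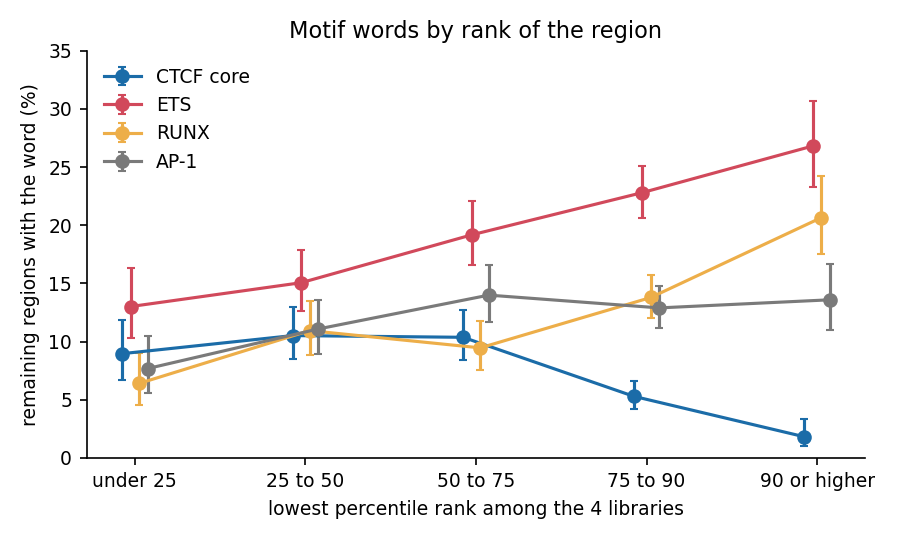
Share of the 3839 remaining intergenic OCRs with a word (vertical axis, %), by the lowest of their percentile ranks in the 4 libraries (horizontal axis), with 95% Wilson intervals. ETS rises from 13.01% to 26.8% and RUNX from 6.40% to 20.7%, while the CTCF core falls to 1.81%.

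With distance the CTCF core fell and ETS did not. The CTCF core was in 9.50% (8.12 to 11.1) of the remaining OCRs 10 to 20 kb from a TSS, 6.27% (5.17 to 7.57) at 20 to 50 kb, 5.98% (4.29 to 8.28) at 50 to 100 kb, and 1 of 191 beyond 100 kb (0.524%, 0.0925 to 2.91). ETS was at 19.3%, 20.4%, 21.6% and 18.8%, with overlapping intervals. The 277 OCRs with a CTCF core were narrower, with a median width of 456 bp against 605 bp for those without, and closer to a TSS, with a median of 18.7 against 24.5 kb. Their median ranks were 75.3, 78.5, 76.4 and 79.7, and lay below those of OCRs without the word in every library.

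The genotypes were then compared to ask which of these intergenic OCRs were more or less open when IL-2 signals were reduced. All of them had a called peak in all 4 libraries. Regions called only in WT or only in Il2ra mut/mut therefore could not enter this comparison, which does not speak to them. No intergenic OCR passed the threshold. Of the 5231 OCRs 0 passed an adjusted p of 0.05 (limma on log2 fold enrichment, Benjamini-Hochberg over all 32960 regions tested, of which 0% were called), and the lowest adjusted p of an OCR was 0.520. At an unadjusted p under 0.05 there were 496 OCRs (9.48%), 241 higher in Il2ra mut/mut and 255 higher in WT, and the share over all regions tested was 9.28%. With median centring in place of quantile normalisation 59 of the 5231 were called, 30 higher in Il2ra mut/mut and 29 higher in WT, against 1.14% of all regions. Under the other settings 0 were called. The deposited values are fold enrichments at called summits and not counts, each genotype had 2 mice, and an exact permutation test of 2 against 2 cannot give a p under 0.333.

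Libraries of different genotype differed slightly more than those of the same genotype. The median absolute log2 difference of an intergenic OCR was 0.28 between the WT libraries and 0.27 between the Il2ra mut/mut libraries, and 0.29 to 0.31 for the 4 pairs of different genotype. Spearman's rho over the remaining OCRs was 0.833 and 0.82 within genotypes and 0.751 to 0.817 between them, as a description over regions of the same libraries. Of the 5231 OCRs 45 (0.860%) had a fitted difference of at least 1 on the log2 scale, and the median SE was 0.25. By kind, an unadjusted p under 0.05 was reached by 47 of 948 crowded OCRs (4.96%), 23 of 444 coincident ones (5.18%) and 426 of 3839 remaining ones (11.1%). The share over all regions tested was 9.28%. Of the 23 coincident OCRs 22 were higher in Il2ra mut/mut, and the median log2 difference of all 444 was 0.18, against -0.03 in the remaining OCRs. WT 2 was the library with the lowest median rank of coincident OCRs, at 76.7 against 81.9 to 85.4 in the others, and with the second highest of remaining OCRs.

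The OCRs with the smallest p in each direction are given as values, none of them past the threshold, with an adjusted p of 0.520 for each. An OCR 136 kb from Itgb1, which encodes the beta1 integrin (chr8:128549651-128550425), had summit reads of 25, 44, 73 and 72 in the usual order, a log2 difference of 1.04 ± 0.17 (SE). An OCR 78.9 kb from Egr2, a transcription factor gene induced by T cell receptor signals (chr10:67458730-67459220), had WT reads of 6 and 6 against 17 and 20 with the mutation. Its WT percentiles were 7.92 and 7.55, near the lowest values at which a peak was called. Its summits spread over 246 bp of a 491 bp region, so the printed sequence need not hold the summit of every library. One 36.3 kb from Csf1, which encodes the macrophage growth factor M-CSF (chr3:107796496-107797008), held 13 and 16 against 37 and 44 reads. One 112 kb from Bach2, a transcription factor gene of resting lymphocytes, held 15 and 26 against 46 and 44, and one 254 kb from Nfe2l3 held 8 and 10 against 26 and 22. In all 5 both Il2ra mut/mut libraries were above both WT libraries, as they were in 973 of all 5231 intergenic OCRs. Libraries in random order, 2 against 2, separate either way with a combined probability of 0.333. The share of separated regions over all regions tested is not given. Choice by the smallest p favours such separation, so that it is no finding.

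In the other direction, 2 OCRs by the predicted gene Gm10354 were both crowded, and held 40 and 44 reads in WT against 14 and 11, and 26 and 29 against 11 and 7. An OCR 82.3 kb from Lcn4 (chr2:26753294-26753906) had WT reads of 17 and 29 against 8 and 8 with the mutation, a log2 difference of -1.44 ± 0.24 (SE). Its percentiles in Il2ra mut/mut were 19.8 and 46.7, and its summits spread over 172 bp. One 297 kb from Gadl1 held 59 and 80 against 44 and 33, and one 233 kb from St3gal1, which encodes a sialyltransferase, held 58 and 83 against 45 and 42. Both WT libraries were above both Il2ra mut/mut libraries in all 5, as they were in 905 of all 5231 intergenic OCRs. The same limits hold for this count. With median centring all 10 had an adjusted p between 1.9e-06 and 0.0336, and without it between 0.482 and 0.616 over the other settings.

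**Figure D5:**
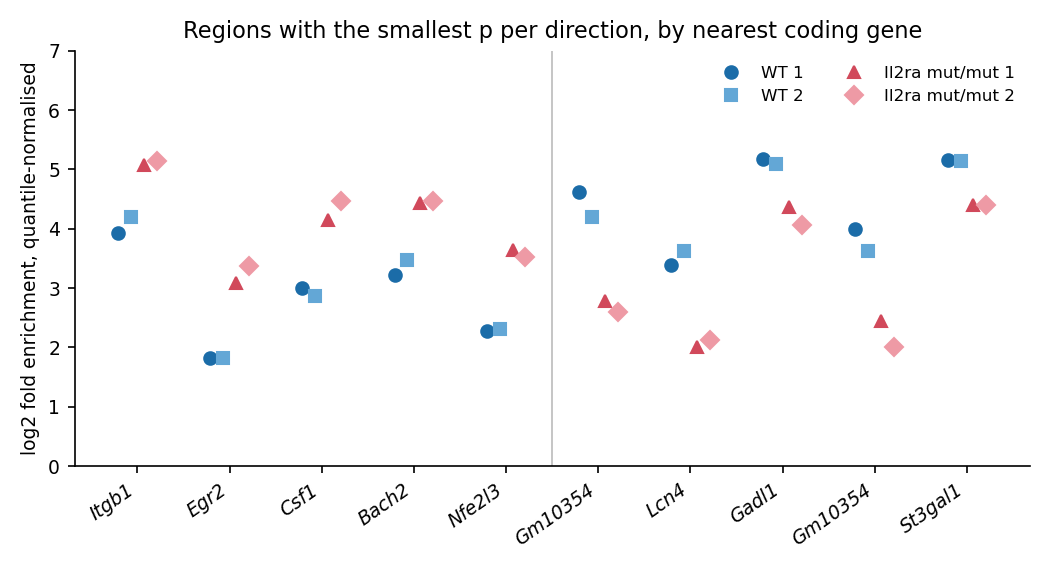
Quantile-normalised log2 fold enrichment (vertical axis) in each of the 4 libraries at the 10 intergenic OCRs with the smallest p between genotypes, 5 per direction, named by the nearest protein-coding gene. The libraries of the genotypes do not overlap at any of them, and each had an adjusted p of 0.520 (limma). Choice by the smallest p favours such separation. Over all 5231 intergenic OCRs the genotypes overlapped at 3353, and libraries in random order would separate with a probability of 0.333.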

How the data were processed

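ATAC-seq was done on LN Treg cells, 2 libraries per genotype. The authors trimmed reads and mapped them to mm10 using BWA mem. Duplicates and reads on the mitochondrial genome were discarded, pairs had to be concordant, read ends were shifted for the transposase, and MACS2 was run in narrow mode on each library separately. The submitters' processing notes list Trim Galore 0.3.7, BWA 0.7.13, SAMtools 0.1.19, Picard 1.92 and MACS2 2.1.0. The deposited lists give per peak a fold enrichment at the summit (a ratio to the background), a −log10 p-value, a −log10 q-value and a score made from the q-value, and hold no read totals, so that the depth is unknown. All deposited fold enrichments of a library equalled (reads + 1) divided by (background + 1) for whole reads and a single background (within 0.02 reads in 100% of peaks), which gave the reads at each summit. Wilson intervals cover counting error only.

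Peaks were merged in Python 3.11.15 and placed on the basic GENCODE M21 annotation of GRCm38. Percentile ranks are those of the fold enrichment among all peaks of a library. Genotypes were compared by limma 3.58.1 in R 4.3.3 on quantile-normalised log2 fold enrichment with an intensity trend, over all 32960 regions. Replicate numbers gave no sign of pairing the libraries (correlation of deviations 0.0099), so no block was used. With 2 libraries per genotype this value cannot exclude a pairing. A −log10 p follows the fold enrichment exactly within a library. The steps were tested on made-up data.

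The genes named are the 10 nearest to the most OCRs and up to 4 per gene list, and the OCRs named are the 10 with the highest lowest rank, the 5 farthest from a TSS and the 5 per direction with the smallest p. The regions, lists and rules were chosen with earlier results of these data known. The crowded and coincident kinds were added after seeing the data. Alternatives were leaving out each library, a replicate block, other normalisation and measures, stricter peaks, other merging, width, window and annotation choices. Chromosomes X and Y, unplaced scaffolds and thymic libraries were left out, and a few genes and sequences that the rules name are not reported here.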

Additional observations from a re-analysis of the deposited data

How the results depend on the processing

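The choice of annotation moved the rule most: with protein-coding genes only, 8576 OCRs met it in place of 5231, and 34.1% of them lay beyond 100 kb in place of 9.56%. Without crowded OCRs the share beyond 100 kb was 6.21%, and 4.98% without crowded and coincident ones. With a peak required in the 3 other libraries after leaving out each in turn, between 6036 and 6899 OCRs met the rule. The other 7 choices for the rule gave 3839 to 6817 OCRs, within 1.5 times the main count. The mean of the 4 median ranks was 79.7, 82.4 without crowded OCRs and 82.6 without both kinds, and the median spread of summits was 108 bp and 91 bp without crowded OCRs. The CTCF core was in 5.45% of all 5231 OCRs, in 3.94% with a 100 bp and 6.14% with a 300 bp window, in 6.51% without crowded OCRs and in 7.22% without both kinds. The ETS word was in 16.3%, and in 10.5%, 19.96%, 18.5% and 20.03% in the same order. T cell transcription factor genes with an OCR numbered 36, and 14 when the nearest TSS of any gene was used in place of the nearest protein-coding one. Between genotypes 59 intergenic OCRs were called with median centring, where limma estimated one spread for all regions of a level (65920 degrees of freedom in place of 6.74). The replicate block gave 0 calls (433 at an unadjusted p under 0.05), as did leaving out any library (0 to 0 calls, 342 to 576 at an unadjusted p under 0.05), the −log10 p (495) and no trend (557).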

Other observations

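The OCR 26.0 kb from Il10, which encodes the suppressive cytokine IL-10 (chr1:130993405-130994370), had WT reads of 35 and 56 against 71 and 80 with the mutation, and had an AP-1 word. The Il2ra mut/mut libraries were the higher ones, by a log2 of 0.66 ± 0.16 (SE), with an adjusted p of 0.520 (limma). The OCR 55.4 kb from Cd44 (chr2:102956669-102957437) held 31 and 48 against 81 and 53 reads, and that 45.2 kb from Il7r (chr15:9574616-9575383) held 28 and 45 against 24 and 22, each with an adjusted p of 0.520. These 3 were picked after their values were seen.

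The 470 remaining OCRs with an AP-1 word had a median log2 difference (Il2ra mut/mut minus WT) of 0.09, against -0.04 in the 3369 without one, and 69 (14.7%) against 357 (10.6%) had an unadjusted p under 0.05. Of the 277 with a CTCF core 12 (4.33%) did, against 414 of 3562 (11.6%) without it. The share over all regions tested was 9.28%. OCRs with a CTCF core ranked lower than those without in every library, at 75.3 against 80.3 in WT 1. The groups compared therefore differed in strength as well as in the word. These shares are a description and were not tested. By chromosome, the density of remaining OCRs ran from 2.72 per Mb on chromosome 14 to 6.56 per Mb on chromosome 11.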
